A study of Homo sapiens with 12 samples.

Results

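SBC3 spheroids treated with lurbinectedin alone were compared with control spheroids, 3 libraries in each group, which are 6 of the 12 libraries of the series. SBC3 is an established human small cell lung cancer line, and both groups share the line, the spheroid culture, the RNA kit and the mRNA library kit. The labels name the treatments Lurbinectedin and Control and give no dose, no exposure time and no sign that the replicates came from separate cultures, so every p-value measures only the spread between these libraries. The other 6 libraries received teriflunomide, an inhibitor of pyrimidine synthesis, with or without lurbinectedin, and entered the estimate of the spread and one closing comparison. All genes were used, and the question put to them was which functions were higher or lower once the genomic span of a gene, the distance from its first to its last annotated base, had been accounted for.

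Lurbinectedin is an alkylating agent that binds in the minor groove of DNA, stalls elongating RNA polymerase II and leads to DNA breaks and to degradation of the stalled enzyme. The chance that a polymerase meets a lesion before it reaches the end of a gene grows with the length it has to transcribe, so agents of this kind are known for lowering the RNA of long genes most. Genes that damage and stress induce include the targets of the transcription factor p53 and the immediate early genes of the AP-1 family. The immediate early genes tested here had a median span well below that of all nuclear genes, so span has to be considered before a rise in them is described. The p53 targets tested had a median span close to that of all nuclear genes.

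Total counts were 23206414 to 30685641 per library over the 6 libraries. The mitochondrially encoded share of counts was 6.26% to 7.17% in control and 13.8% to 17% with lurbinectedin. Of the lineage markers, SYP and NEUROD1 were present, and INSM1, NCAM1, EPCAM and CDH1 were at 0 to 0.0485 CPM (counts scaled to an equal library size) in all 6. Of the epithelial markers KRT8 was high, at 236 to 252 CPM in control and 400 to 433 with lurbinectedin, while KRT18 and KRT19 stayed at or below 0.195. The summed CPM of the T cell markers stayed at or below 0.117 and that of the endothelial markers at or below 0.568. The myeloid sum was 0.0334 to 0.268 in control and 1.65 to 2.46 with lurbinectedin, most of it CD14, and its part in the results was not tested. Levels below are CPM scaled to effective library sizes, each relative to the other RNA of its library, so fewer transcripts of a gene and more of all others cannot be told apart. Use of strand in counting is not given in the sources used here, so the levels of named genes that overlap another on the opposite strand are uncertain; among those described below are CDKN1A (with DINOL), LIF (LIF-AS2), STAG1 (PCCB), STAG2 (STAG2-AS1), HDAC4 (HDAC4-AS1), IDH1 (IDH1-AS1), NDUFB3 (HYCC2), CHEK2 (HSCB), PRIM1 (HSD17B6), FANCF (GAS2), BCL2L11 (MIR4435-2HG), HEXIM1 (HEXIM2-AS1), MYC (CASC11) and IL21-AS1 (IL21).

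Before span was considered, 11953 of 16683 genes tested (71.6%) passed edgeR's quasi-likelihood test at an adjusted p under 0.05 (Benjamini-Hochberg), 36.0% higher and 35.7% lower. Among the 16651 nuclear genes these shares were 35.9% and 35.8%. The 3 control and 3 lurbinectedin libraries did not overlap in level for 83.2% of the genes tested. With library size as the only scaling, 39.2% of the calls were higher, against 50.2% with the main scaling, and the median log2 change of all genes moved from 0.05 to -0.18.

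The typical change was nearly flat among short genes and fell steeply beyond about 30 kb. A smooth trend of log2 change on span, fitted in each library, stood at 0.66 ± 0.0564 (SD, n = 3 lurbinectedin libraries) for a gene of 1 kb, 0.59 ± 0.0314 at 10 kb and 0.13 ± 0.00254 at 30 kb. It was -1.24 ± 0.0776 at 100 kb, -3.05 ± 0.0853 at 300 kb and -4.60 ± 0.0562 at 1000 kb, the last a ratio of 0.0412 to control. The 3 curves lay on top of each other, and those of the 3 control libraries stayed between -0.0299 and 0.0179 at these spans. As a straight line over all spans, the slope was -0.587 ± 0.0543 log2 units per 10-fold longer span with lurbinectedin and 0.587 ± 0.0145 in control (each relative to the mean of the 6 libraries), a difference of -1.17 with an exact two-sided permutation p of 0.1, the smallest that 3 against 3 libraries can give. This straight-line difference was -0.44 with no filter on low counts and -1.45 with a minimum of 1 CPM in 3 libraries.

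**Figure D1:**
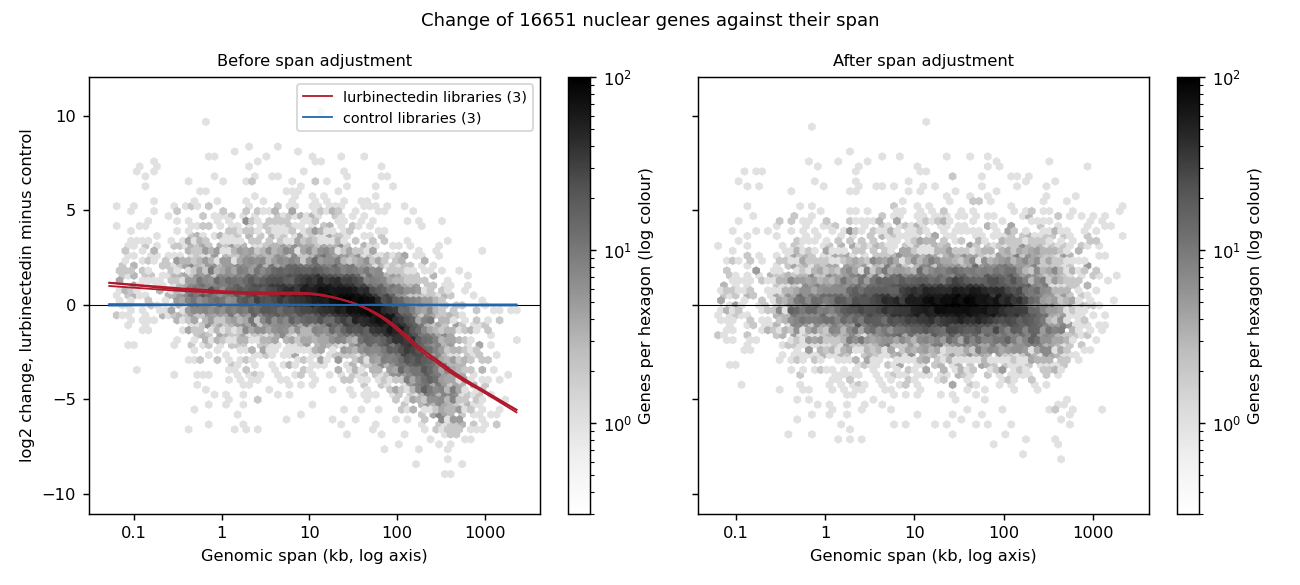
Each hexagon holds genes by their genomic span (log axis, kb) and their log2 change between lurbinectedin and control. The change is shown before (left) and after (right) the span trend was entered as an offset in the fit. The lines at left are the trends of the 3 lurbinectedin and 3 control libraries. The lurbinectedin trend passes from 0.59 at 10 kb to -3.05 at 300 kb, and the Spearman correlation of change and span went from -0.572 to -0.02 across 16651 genes.

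Some genes went against the direction common at their span. Of 2711 genes of 100 kb or more, 141 were called higher, and of 4968 genes under 10 kb, 615 were called lower. In the class from 100 to 300 kb, 5.69% of 2195 genes were higher and 85.3% lower, with a median log2 change of -1.96. Above 300 kb, 3.10% of 516 genes were higher and 90.1% lower, with a median of -3.61. Genes from 3 to 10 kb were 56.0% higher and 12.9% lower, with a median of 0.65.

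**Figure D2:**
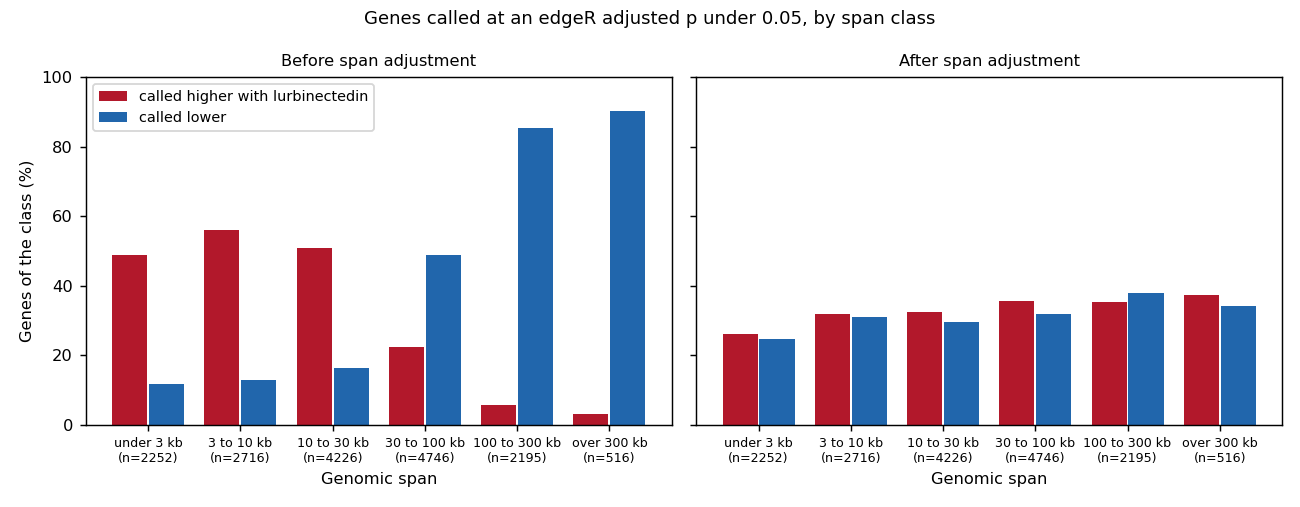
Percent of the tested nuclear genes of each span class (horizontal axis, kb, with the number of genes) that edgeR called higher or lower with lurbinectedin, before and after span adjustment. Before adjustment the share called lower goes from 11.7% under 3 kb to 90.1% above 300 kb; after it, both directions lie between 24.5% and 38% in every class.

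Each gene was then tested against the trend at its own span, so that a call means that its change differed from that of a typical gene of equal span, whatever its level. On this scale 10639 of 16651 nuclear genes (63.9%) were called, 5476 higher (32.9%) and 5163 lower (31.0%). The trend held 38.5% of the variance of log2 change over genes. Level was not part of it. Above 300 kb, the 172 genes lowest in control had a median of 1.03 on this scale, with 44.8% higher and 6.98% lower. The 172 of middle level had a median of -0.50 (32.0% higher, 45.3% lower). The 172 of highest level had -0.43 (35.5% higher, 50% lower). The part of level in calls of long genes was not tested. In all, 3993 genes were higher and 3809 lower in both tests. A further 758 went from lower to higher, 56 from higher to lower, while 1927 that were higher and 1387 that were lower lost their call. Of genes not called before adjustment, 725 became higher and 1298 lower for their span. Below, "higher for its span" and "lower for its span" name calls of this second test, and "before adjustment" the first. Counts of members called are to be read beside the shares of all nuclear genes. These are 32.9% higher and 31.0% lower for their span, and 35.9% higher and 35.8% lower before adjustment.

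The span of a gene and the span of the transcript a cell makes from it can differ. Of 12886 tested genes with a principal transcript in GENCODE 29, 1084 (8.41%) have one that covers under 50% of the gene. Of the genes over 100 kb with at least 1 CPM in control, 1824 have a principal transcript that is itself over 100 kb, and 0.822% of these were called higher before adjustment and 97.2% lower. Of the 341 with a principal transcript of 30 to 100 kb, 7.92% were higher and 76.8% lower. Of the 72 with one under 30 kb, 40.3% were higher and 31.9% lower, and their median log2 change before adjustment was 0.12, against -2.52 for the first of these groups. Both spans are given below where they differ widely.

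**Figure D3:**
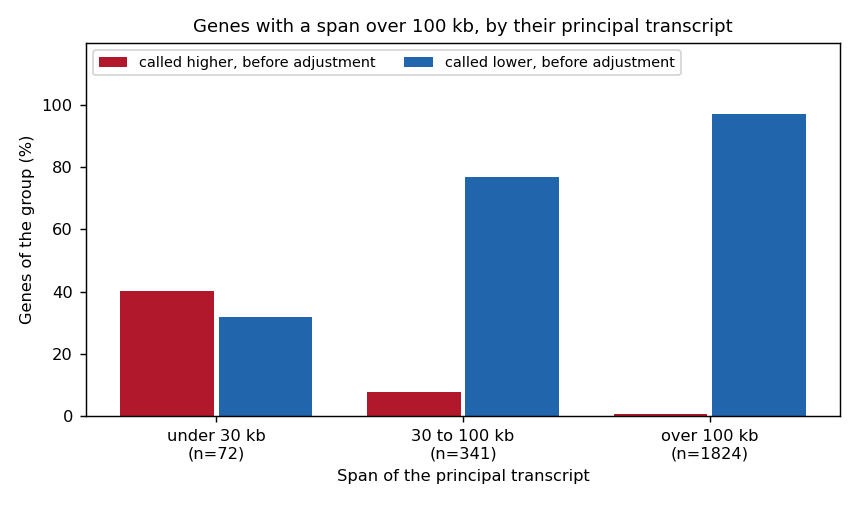
Genes with a genomic span over 100 kb and at least 1 CPM in control, grouped by the span of their principal transcript (horizontal axis, with the number of genes); bars give the percent that edgeR called higher or lower before adjustment. The share called higher falls from 40.3% (principal transcript under 30 kb) to 0.822% (over 100 kb).

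Targets of p53 had the highest median of the 79 lists. Of 31 tested members, 31 were higher before adjustment and 30 for their span, none was lower, and the median span-adjusted log2 change was 2.45, against 0.03 over all nuclear genes. This list was written with earlier results of these data known, as were the others. CDKN1A, which encodes the cyclin-dependent kinase inhibitor p21 (chromosome 6, 36676460 to 36687337, GRCh38), had 23.2, 21.1 and 24.2 CPM in the control libraries and 654, 572 and 632 with lurbinectedin. No lurbinectedin library came near the control range, and the span-adjusted change was 4.19 (SE 0.170, edgeR adjusted p = 4.63e-10). MDM2, the ubiquitin ligase that degrades p53, stood at 259, 280.4 and 247 CPM in control and 1407, 1459 and 1351 with lurbinectedin, a change of 2.45 (SE 0.138, edgeR adjusted p = 6.81e-09). FDXR, which passes electrons to ferredoxin in mitochondria, had 14, 11.4 and 13.5 CPM against 345, 311 and 322 (4.07, SE 0.126, edgeR adjusted p = 7e-11). The growth arrest gene GADD45A went from 8.45, 9.49 and 7.32 CPM to 303, 268 and 270.3, a change of 4.45 (SE 0.224, edgeR adjusted p = 2.55e-09). The exception was CCNG1, a cyclin that p53 induces, at 240.1 ± 11.4 (SD, n = 3) against 396 ± 31.4 CPM and 0.12 (SE 0.211, edgeR adjusted p = 0.639).

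In the BCL2 family, which decides between survival and death of the cell, 9 of 15 were higher and 2 lower for their span, with a median of 1.32. PMAIP1 and BBC3, which encode the proapoptotic proteins NOXA and PUMA and are also p53 targets, went from 2.50 ± 0.0959 to 62.8 ± 8.28 CPM and from 2.81 ± 0.441 to 43.4 ± 2.43 CPM (SD, n = 3). BCL2L11, which encodes BIM, was higher by 2.04 (SE 0.102, edgeR adjusted p = 2.27e-09). The antiapoptotic BCL2L2, of 13 kb, had 16.6, 18.7 and 18.7 CPM in control and 15.3, 15.7 and 15.7 with lurbinectedin, a span-adjusted change of -0.75 (SE 0.124, edgeR adjusted p = 0.000136); it shares exons with the readthrough gene BCL2L2-PABPN1, so its counts are uncertain.

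Immediate early genes, which code for transcription factors and regulators that cells induce within minutes of a stimulus, were higher for their span in 28 of 30 cases and lower in 1, with a median of 1.95. ATF3, a stress-induced repressor and activator of the ATF family (chromosome 1, 212565334 to 212620777), had 3.02, 2.88 and 2.57 CPM in control and 176, 152 and 154 with lurbinectedin. JUN, the core AP-1 subunit (chromosome 1, 58776845 to 58784048), had 3.59, 4.05 and 4.18 against 213, 185 and 195 CPM. Their span-adjusted changes were 6.25 (SE 0.168, edgeR adjusted p = 3.19e-11) for ATF3 and 5.03 (SE 0.141, edgeR adjusted p = 3.19e-11) for JUN. FOS, the partner of JUN in AP-1, had 2.18, 1.91 and 1.76 CPM in control and 38, 41 and 33.6 with lurbinectedin (3.66, SE 0.239, edgeR adjusted p = 2.71e-08). EGR1, a zinc finger factor, had 24.6, 22.2 and 23.2 against 86.2, 96.9 and 95 CPM and a change of 1.38 (SE 0.23, edgeR adjusted p = 0.000136). The 1 member lower for its span was MYC, the growth-promoting factor, whose levels were 196, 201 and 207 CPM in control and 182, 166 and 186 with lurbinectedin. The ranges of MYC did not overlap but lay close together, and where a typical gene of 7.52 kb rose by 0.61, MYC had -0.18 before adjustment (edgeR adjusted p = 0.144) and a span-adjusted change of -0.79 (SE 0.0843, edgeR adjusted p = 2.49e-06). The 1 member not called was the zinc finger gene KLF6, at -0.09 (edgeR adjusted p = 0.586), which is named after its value was seen.

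The promoters below, from RefSeq on GRCh38.p14, cover 250 bases before to 50 bases after the annotated start and are shown as examples of described genes whose promoter holds one of the motifs searched. Capitals mark CArG boxes, the site of serum response factor, in EGR1 (chr5:138465229-138465528, plus strand), the TATA box TATAAA in FOS (chr14:75278578-75278877, plus strand) and a p53 half-site in FDXR (chr17:74872945-74873244, minus strand).
EGR1: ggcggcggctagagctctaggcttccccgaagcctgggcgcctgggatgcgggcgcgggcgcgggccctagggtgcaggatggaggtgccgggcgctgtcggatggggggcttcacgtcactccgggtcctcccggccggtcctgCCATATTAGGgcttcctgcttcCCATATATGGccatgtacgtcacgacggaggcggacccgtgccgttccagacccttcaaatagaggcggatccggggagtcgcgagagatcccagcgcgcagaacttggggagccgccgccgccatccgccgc
FOS: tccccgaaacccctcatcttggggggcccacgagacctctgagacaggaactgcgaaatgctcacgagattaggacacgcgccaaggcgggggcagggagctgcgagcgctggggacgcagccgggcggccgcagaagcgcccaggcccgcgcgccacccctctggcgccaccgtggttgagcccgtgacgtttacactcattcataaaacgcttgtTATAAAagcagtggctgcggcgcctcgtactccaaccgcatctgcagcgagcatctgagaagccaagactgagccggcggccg
FDXR: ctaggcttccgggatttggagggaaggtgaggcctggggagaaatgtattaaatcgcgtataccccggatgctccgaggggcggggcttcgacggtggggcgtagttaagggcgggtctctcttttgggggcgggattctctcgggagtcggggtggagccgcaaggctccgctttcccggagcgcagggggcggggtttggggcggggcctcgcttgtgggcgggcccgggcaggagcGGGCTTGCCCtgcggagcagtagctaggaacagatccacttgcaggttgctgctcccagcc

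The CArG boxes of EGR1 begin at positions -105 and -83 from the start, the TATA box of FOS at -33 and the half-site of FDXR at -11. All motifs were searched on both strands. TATAAA was found in 7 of 21 immediate early promoters with an entry (33.3%), in 1 of 25 p53 target promoters, in 5.71% of the 11362 promoters of genes tested and in 12% of all 27305 promoters of the table. CArG boxes were found in 2 of 21 immediate early promoters, 1.04% of those of genes tested and 1.29% of all promoters, and the cAMP response element TGACGTCA in 2 of 21, 3.34% and 1.98%. A single p53 half-site was found in 4 of 25 p53 target promoters (16%), in none of the 21 immediate early promoters, in 5.27% of those of genes tested and in 6.54% of all promoters. Tandem p53 half-sites, a pair close together, were found in 0 of the 25 p53 target promoters. They were found in 5 of the 11362 promoters of genes tested and in 8 of all 27305, so the marked site of FDXR is a single half-site. Among 1705 promoters of genes at least 2-fold higher for their span, 8.68% held TATAAA and 7.39% a p53 half-site. Among 1632 promoters of genes at least 2-fold lower these shares were 7.23% and 5.21%, and among 3899 of genes not called 5.18% and 4.80%. These are matches of letters in a window of 300 bases and no evidence of binding.

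Genes of the NF-kB pathway and the cytokines it controls were also mostly above the trend: 17 of 20 were higher and 0 lower for their span, with a median of 1.32. LIF, a cytokine of the interleukin 6 family, went from 1.04, 0.568 and 0.926 CPM in control to 27.6, 26.5 and 28.9 (4.41, SE 0.186, edgeR adjusted p = 5.79e-10). TNFAIP3, which encodes the feedback inhibitor A20, went from 1.56 ± 0.120 to 12.5 ± 1.19 CPM. The precursor gene NFKB1 spans 116 kb and fell by 1.62 on the log2 scale before adjustment, close to the trend of -1.50 at that span, with a span-adjusted change of -0.12 (SE 0.129, edgeR adjusted p = 0.427). Genes of HLA class I presentation had 8 of 15 members higher and 1 lower for their span, among them HLA-E (21.4 ± 0.696 to 128 ± 10.7 CPM) and the peptide transporter TAP1 (14.5 ± 0.199 to 96.8 ± 5.67 CPM). HLA genes resemble each other, so reads may be shared among them.

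**Figure D4:**
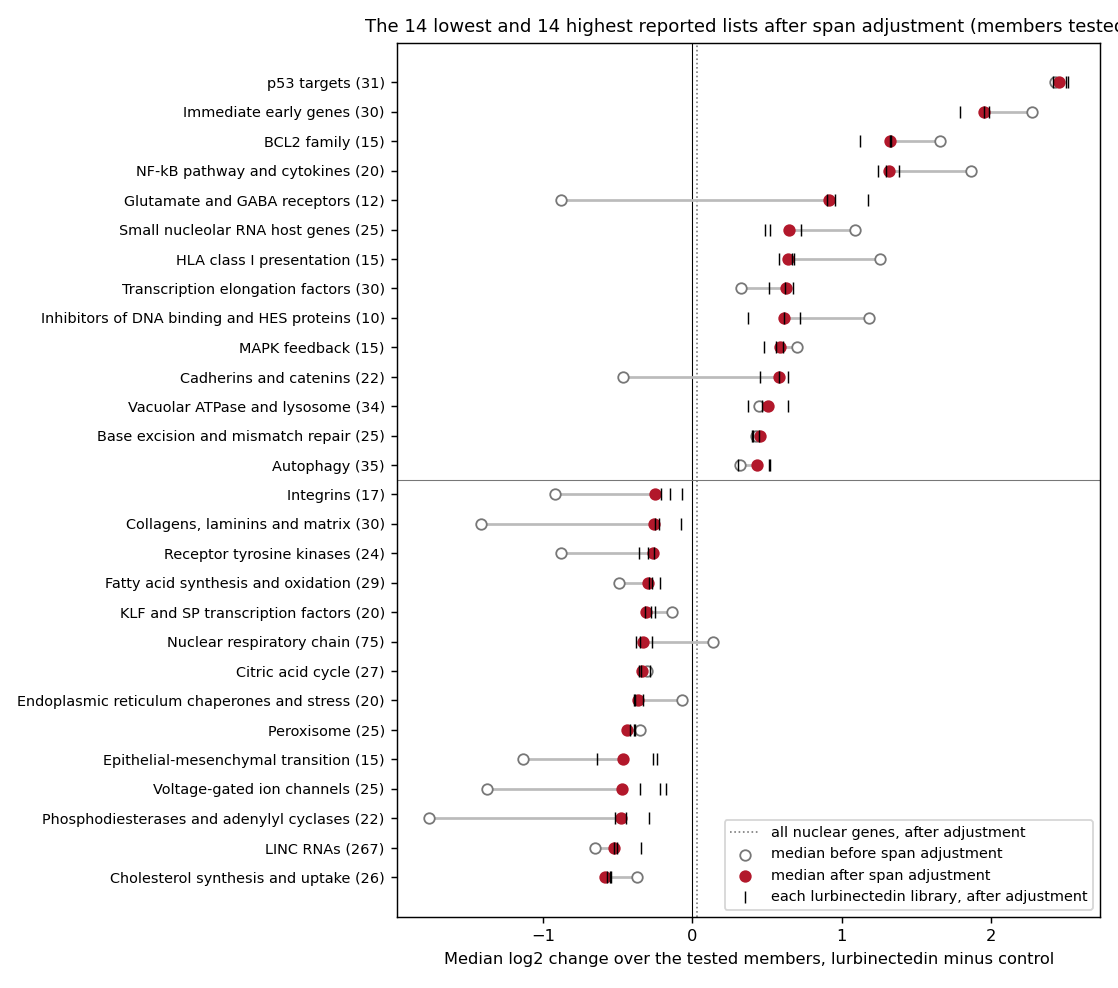
Median log2 change between lurbinectedin and control over the tested members (number in brackets) of the 14 lowest and 14 highest of the lists reported here with at least 10 members, before (open circles) and after (filled circles) span adjustment; ticks are the medians in each of the 3 lurbinectedin libraries after adjustment. Targets of p53 stay near 2.45 in both, whereas the phosphodiesterases and adenylyl cyclases move from -1.76 to -0.48 and the nuclear respiratory chain from 0.14 to -0.33.

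Most subunits of RNA polymerase II were higher. POLR2A, the largest subunit of RNA polymerase II (chromosome 17, 7484366 to 7514616), had 1332, 1472 and 1552 CPM in control and 4414, 3739 and 3957 with lurbinectedin. Every treated library stood above every control, and the change for its span was 1.35 (SE 0.255, edgeR adjusted p = 0.000411). Among the 12 subunits, 7 were higher and 1 lower for their span, with a median of 0.36. POLR2D was higher by 0.60 (SE 0.0911, edgeR adjusted p = 5.81e-05) and POLR2J lower by 0.54 (SE 0.0970, edgeR adjusted p = 0.00028). POLR2F, with a span of 89.3 kb but a principal transcript of 15.6 kb, went from 53.9 ± 0.929 to 72 ± 7.38 CPM.

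Of the factors that control the release and elongation of the polymerase, 18 of 30 were higher and 4 lower for their span, with a median of 0.63 where it was 0.33 before adjustment. Against principal transcript spans 16 were higher and 5 lower, with a median of 0.32. HEXIM1, which holds the elongation kinase P-TEFb inactive in the 7SK particle, had 43.1, 44.9 and 45.7 CPM in control and 371, 341 and 338 with lurbinectedin (2.37, SE 0.127, edgeR adjusted p = 4.25e-09). CCNK, the cyclin of the elongation kinases CDK12 and CDK13, was higher by 1.78 (SE 0.158, edgeR adjusted p = 4.62e-07). LARP7, which stabilises the 7SK RNA of the same particle, went the other way, from 35.8, 36.7 and 36.1 CPM to 17.3, 17.6 and 17.1 (-1.41, SE 0.213, edgeR adjusted p = 5.85e-05). The Mediator complex, which links activators to the polymerase, had 11 of 33 subunits higher (33.3%) and 10 lower (30.3%), near the 32.9% and 31.0% of all nuclear genes. MED26 was higher by 1.27 and MED27, of 227 kb, lower by 1.39 (edgeR adjusted p = 1e-06 and 0.000135).

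Core spliceosome members were higher in 22 of 39 cases and lower in 3 before adjustment. For their span 13 were higher (33.3%) and 7 lower (17.9%), against 32.9% and 31.0% of all nuclear genes. Their median of 0.07 was -0.091 with a trend on span and mean expression. SF3B4, a U2 particle protein, was higher by 1.10 (SE 0.128, edgeR adjusted p = 5.75e-06). Among SR proteins and their kinases, 7 of 22 were higher (31.8%) and 9 lower (40.9%) for their span. SRSF1, the splicing activator, fell from 154, 163 and 155 CPM to 67.9, 84.4 and 59.3, a span-adjusted change of -1.77 (SE 0.214, edgeR adjusted p = 8.19e-06). SRSF5 rose from 115 ± 4.74 to 197 ± 7.12 CPM, and the kinase CLK3 from 40.7 ± 0.947 to 60.2 ± 2.03 CPM.

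Cytosolic ribosomal protein genes rose together before adjustment, but most did so by about as much as other genes of their span. Of 79 members, 77 were higher and 0 lower before adjustment (edgeR; the other 2 were not called), with a median of 0.73, and the trend at their spans was 0.61. For their span, 26 were higher (32.9%), 4 lower (5.06%) and 49 not called, against 32.9% higher and 31.0% lower of all nuclear genes. Their median of 0.16 was -0.0076 with a trend on span and mean expression. RPS6 shows the difference: it had 1281, 1278 and 1181 CPM in control and 1576, 1521 and 1443 with lurbinectedin, a rise of 0.28 before adjustment, which lay below the trend by 0.33 (SE 0.113, edgeR adjusted p = 0.0203). Ribosomal protein genes have many processed pseudogenes, so reads may be shared with these.

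Genes for making ribosomes in the nucleolus were higher for their span in 27 of 50 cases and lower in 7, with a median of 0.40. UTP4 was higher by 2.01 (SE 0.123, edgeR adjusted p = 1.45e-08), though its principal transcript spans 36.5 of 99.8 kb, and UTP18 was lower by 0.89 (edgeR adjusted p = 1.9e-06). Host genes of small nucleolar RNAs were higher for their span in 15 of 25 cases and lower in 3. SNHG15 went from 14.6, 14.5 and 15.8 CPM to 69.5, 66.7 and 62.3 and SNHG12 from 15.2 ± 1.51 to 56.3 ± 3.56 CPM.

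Respiratory chain and mitochondrial ribosomal protein genes in the nucleus had more members lower than higher for their span, though not before adjustment. Subunits of the respiratory chain were higher in 27 of 75 cases and lower in 15 before adjustment, with a median of 0.14. For their span 10 were higher and 37 lower, with a median of -0.33. NDUFB3, a complex I subunit, fell from 34.7, 38.4 and 33.8 CPM to 19.1, 20.4 and 18.9 (-1.38, SE 0.128, edgeR adjusted p = 7.16e-07). SDHA, the catalytic subunit of complex II, rose from 16 ± 0.864 to 41.2 ± 1.55 CPM; it has near-identical pseudogenes. Mitochondrial ribosomal proteins likewise went from 35 higher and 19 lower of 76 to 17 higher and 35 lower. MRPL48, of 77.3 kb, fell from 34, 33.5 and 31.1 CPM to 4.12, 4.22 and 4.25, below the trend by 2.14 (SE 0.129, edgeR adjusted p = 1.23e-08). Of the citric acid cycle list, 14 of 27 were lower and 6 higher before adjustment, and 13 lower and 5 higher for their span. Its lowest member was IDH1, whose enzyme works in the cytosol and not in the cycle itself, at 177, 178 and 168 CPM in control and 55.3, 57.2 and 57.8 with lurbinectedin (-1.76, SE 0.0771, edgeR adjusted p = 7.31e-10). These nuclear genes stand beside the larger mitochondrially encoded share of counts given above, whose part in this was not tested.

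Genes of sterol synthesis and uptake were mostly lower. Of 26 members, 17 were lower and 1 higher for their span, with a median of -0.59; before adjustment 14 were lower and 2 higher. INSIG1, which retains the sterol sensor in the endoplasmic reticulum, had 64.6, 64.1 and 61.7 CPM in control and 44.5, 51.3 and 47.2 with lurbinectedin. FDPS, an enzyme of isoprenoid synthesis, had 220.0, 216 and 219.7 CPM against 179.8, 171 and 173. For their span INSIG1 and FDPS were lower by 0.96 and 0.88 (edgeR adjusted p = 1.52e-06 and 1.35e-06). The 1 higher member was the sterol reductase gene TM7SF2, at 4.78 ± 0.353 against 33.7 ± 0.738 CPM, which overlaps VPS51. In fatty acid metabolism 13 of 29 were lower and 3 higher for their span. The desaturase gene SCD fell from 1281 ± 41.2 to 910.0 ± 30.4 CPM and the elongase gene ELOVL6 from 102 ± 3.01 to 9.47 ± 1.52 CPM.

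Chaperones and stress genes of the endoplasmic reticulum were lower for their span in 11 of 20 cases and higher in 4, with a median of -0.37 that was 0.25 with a trend on exonic length. XBP1, a factor of the unfolded protein response, had 68.4 ± 1.90 CPM in control and 63.6 ± 1.46 with lurbinectedin, which was below the trend by 0.72 (edgeR adjusted p = 2.59e-06), while ERN1, the sensor that splices its RNA, was higher by 1.43 (SE 0.159, edgeR adjusted p = 4.03e-06). Peroxisome genes were lower in 14 of 25 cases and higher in 5, with PEX2 at 36.2 ± 1.81 against 18.4 ± 0.519 CPM. Lysosome and vacuolar ATPase genes went the other way, 20 of 34 higher and 5 lower, with the sialidase gene NEU1 at 21.7 ± 1.31 against 129 ± 13 CPM.

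Histone modifiers and chromatin remodelers, of median span 81.6 kb, were lower in 50 of 85 cases and higher in 17 before adjustment. For their span 40 were higher and 25 lower, and 20 members turned from lower to higher; the median of 0.22 was -0.24 with no filter on low counts. KDM2A, a demethylase gene of 139 kb, had 296, 313 and 325 CPM in control and 277, 266 and 284 with lurbinectedin, whereas HDAC4, of 353 kb, fell from 27.1, 27.9 and 29.3 CPM to 0.775, 0.704 and 0.909. Their span-adjusted changes were 1.65 (SE 0.117, edgeR adjusted p = 5.55e-08) for KDM2A and -1.84 (SE 0.268, edgeR adjusted p = 4.44e-05) for HDAC4. HECT and cullin ubiquitin ligases had 29 of 38 lower and 6 higher before adjustment. For their span 11 were lower (28.9%) and 14 higher (36.8%), near the 31.0% and 32.9% of all nuclear genes. Their median of 0.09 was -0.49 with no filter, and also below 0 with trends on exonic length and on span with mean expression. Their extremes were the substrate receptors FBXW7, which rose from 28.9, 31 and 30.9 CPM to 117, 114 and 109 and has a principal transcript of 31.6 in a span of 216 kb, and BTRC, of 203 kb throughout, which fell from 54, 56.2 and 55.9 CPM to 2.13, 3.75 and 2.22.

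The cohesin subunits STAG1 and STAG2, alternatives in the same complex, went in opposite directions for their span. STAG1 (chromosome 3, 136336236 to 136752403) spans 416 kb and had 55.1, 57.1 and 54.1 CPM in control and 1.02, 0.938 and 0.945 with lurbinectedin. STAG2 (chromosome X, 123960212 to 124422664) spans 462 kb and had 308, 334 and 305 against 111, 123 and 124 CPM. Both fell before adjustment, by 5.84 and 1.40 on the log2 scale. STAG1 was lower for its span by 2.32 (SE 0.170, edgeR adjusted p = 7.96e-08) and STAG2 higher by 2.28 (SE 0.104, edgeR adjusted p = 1.16e-09). The principal transcript of STAG2 spans 141 kb and that of STAG1 416 kb. With no filter on low counts the value of STAG2 was -0.15, and with a trend on exonic length -0.94.

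**Figure D5:**
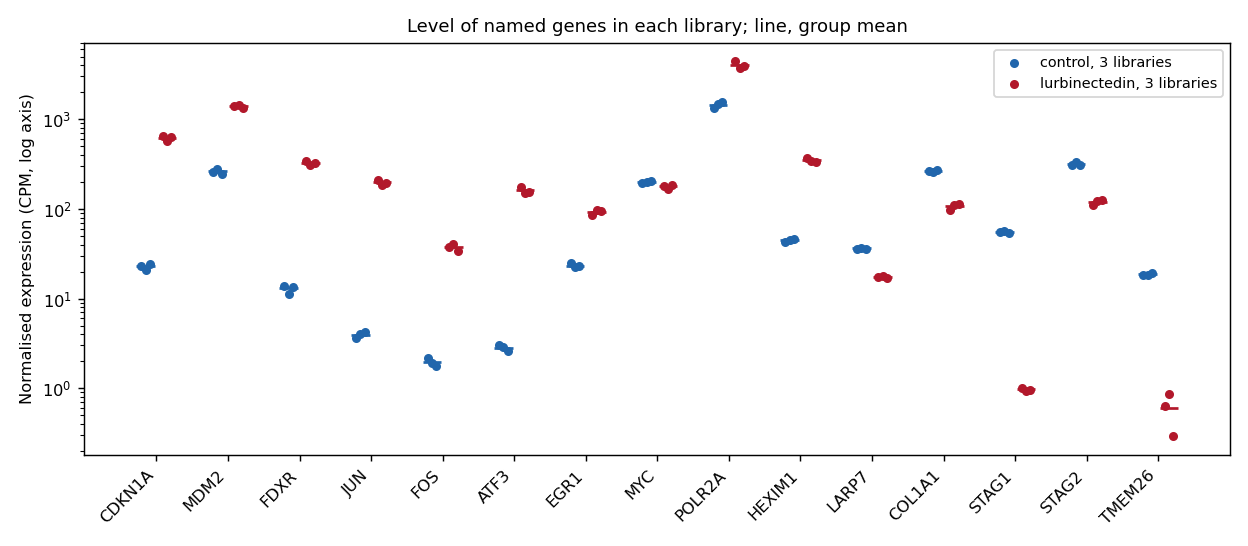
Level in CPM (log axis) of 15 named genes in each control (blue) and lurbinectedin (red) library, with the group mean as a line. JUN goes from a mean of 3.94 to 198 CPM, STAG1 from 55.4 to 0.967 and STAG2 from 316 to 119.6, and the 2 groups of MYC lie close together.

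Of 24 genes of the Hippo pathway, 13 were lower (54.2%) and 7 higher (29.2%) before adjustment, against 35.8% and 35.9% of all nuclear genes. For their span 6 were lower (25%) and 13 higher (54.2%), against 31.0% and 32.9%, with 5 turned from lower to higher. The median of 0.39 was below 0 with no filter on low counts and -0.24 with a trend on exonic length. Its secreted targets CCN1 and CCN2, which are also in the immediate early list, went from 7.40 ± 0.635 to 71 ± 1.44 and from 1.79 ± 0.414 to 34 ± 1.70 CPM. The scaffold gene WWC1, of 181 kb, fell from 21.8, 21.8 and 25.2 CPM to 0.727, 0.547 and 0.909 (-2.69, SE 0.220, edgeR adjusted p = 2.15e-07), and AMOTL1, of 170.3 kb, had 38.8 ± 1.20 against 34 ± 2.36 CPM, above the trend by 1.99 (SE 0.0948, edgeR adjusted p = 1.47e-09).

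Phosphodiesterases and adenylyl cyclases break down and make cyclic nucleotides. For their span 13 of 22 were lower (59.1%) and 5 higher (22.7%), where 18 were lower (81.8%) and 3 higher (13.6%) before adjustment. The exceptions PDE4D and PDE4B, of 1553 and 582 kb, fell from 259 ± 12.9 to 137 ± 8.17 and from 412 ± 8.87 to 259 ± 2.74 CPM, above the trend by 4.19 and 3.31; their shortest annotated transcripts span 0.469 and 0.663 kb, and with a trend on exonic length the value of PDE4B was -0.093.

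Among Wnt pathway genes 15 of 36 were lower (41.7%) and 8 higher (22.2%) for their span, against 31.0% and 32.9% of all nuclear genes. Members included the secreted inhibitor SFRP1 (129 ± 4.30 to 39.8 ± 0.749 CPM) and the receptor LGR4 (20.7 ± 0.202 to 2.16 ± 0.0607 CPM). Genes of collagens, laminins and matrix were lower in 14 of 30 cases (46.7%) and higher in 6 (20%). The type I collagen chains COL1A1 and COL1A2 fell in every library, COL1A1 from 267, 259 and 272 CPM to 96.2, 109 and 114 and COL1A2 from 275, 259 and 276 to 89.9, 104 and 106. These also served as fibroblast markers, of which the other 2, DCN and LUM, were at 0 in 5 and 6 of the 6 libraries.

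In homologous recombination and the Fanconi pathway of DNA repair 15 of 31 were higher and 5 lower for their span, with a median of 0.24 that was -0.20 with a trend on exonic length. The lowest was FANCF, a single-exon core complex gene, at 24.9, 25 and 23.2 CPM in control and 14.6, 14.3 and 14 with lurbinectedin (-1.38, SE 0.129, edgeR adjusted p = 7.52e-07). In nucleotide excision repair, which removes bulky lesions and those that stall the polymerase, 10 of 21 were higher (47.6%) and 5 lower (23.8%). Against principal transcript spans 8 were higher and 5 lower. Its damage sensors XPC and DDB2, both in the p53 list, went from 50.1 ± 1.53 to 183 ± 10.2 and from 16 ± 0.691 to 68.2 ± 4.73 CPM, and the nuclease gene ERCC4 was lower for its span by 0.43 (edgeR adjusted p = 0.00288), a value of 0.89 with a trend on exonic length. In end joining, 2 of 10 were higher and 2 lower, 20% each way and below the shares of all nuclear genes. Its member XRCC4, of 276 kb, went from 13.2, 14.1 and 12.8 CPM to 0.291, 0.391 and 0.327. Of the checkpoint genes 10 of 22 were higher (45.5%) and 6 lower (27.3%), against 32.9% and 31.0% of all nuclear genes. Among them CHEK2, the effector kinase, was lower by 1.97 (edgeR adjusted p = 1.14e-08), and CLSPN, the adaptor of the kinase CHK1, higher by 1.44 (edgeR adjusted p = 7.67e-07). Of 44 DNA replication genes 14 were higher and 14 lower, 31.8% each way and near the shares of all nuclear genes, and PRIM1, the primase, fell from 36.7 ± 1.47 to 14.1 ± 1.53 CPM. The ribonucleotide reductase subunits RRM2 and RRM2B, the latter induced by p53, rose from 233 ± 11.5 to 639 ± 29.6 and from 78.8 ± 3.15 to 261 ± 25.5 CPM; RRM2 spans 91 kb and its principal transcript 9.70 kb.

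The zinc finger genes of chromosome 19, many of them repressors of transposable elements, were higher for their span in 126 of 262 cases (48.1%). They were lower in 38 (14.5%), with a median of 0.34 where it was 0.55 before adjustment. Of all 1252 genes tested on chromosome 19, these included, 41.1% were higher and 19.97% lower for their span, with a median of 0.30. Whether the zinc finger genes differ from the rest of their chromosome was not tested. ZNF600 and ZNF850 went from 6.41 ± 0.399 to 36.3 ± 4.65 and from 34.6 ± 2.10 to 92.3 ± 2.31 CPM; members of this family share sequence. Long intergenic noncoding RNAs with LINC names were lower for their span in 123 of 267 cases and higher in 63, with a median of -0.53. Of 528 named antisense RNAs 150 were higher and 158 lower, and of 264 transcripts divergent from coding genes 69 and 74, all below the shares of all nuclear genes. IL21-AS1 rose from 44.3, 42 and 42.1 CPM to 232, 221 and 217 (3.08, SE 0.104, edgeR adjusted p = 1.23e-10), and CEBPA-DT fell from 11.9 ± 0.209 to 4.35 ± 0.412 CPM.

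The single genes farthest above the trend, after the pseudogene KLKP1, included several long genes. Adjusted changes were spread more widely among long genes, with an SD over genes of 2.33 above 300 kb against 1.15 from 30 to 100 kb. Such a ranking therefore favours long genes. PCDH9, a protocadherin gene of 928 kb with a principal transcript of 927 kb, had 1.01, 1.10 and 1.19 CPM in control and 8.96, 6.76 and 8.72 with lurbinectedin (7.41, SE 0.282, edgeR adjusted p = 2.79e-10). SGK1, a kinase that glucocorticoids and stress induce, went from 1.71, 1.77 and 1.40 CPM to 52.4, 47.8 and 48.3; its gene spans 149 kb and its principal transcript 5.64 kb. MORC4 went from 1.20 ± 0.243 to 24.8 ± 1.89 CPM and TEX14, whose principal transcript spans 135 kb, from 0.404 ± 0.123 to 8.98 ± 0.889 CPM.

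Among the genes farthest below the trend were some of ordinary or short span. TMEM26, a membrane protein gene of 46.7 kb (chromosome 10, 61406642 to 61453381), had 18.4, 18.4 and 19.1 CPM in control and 0.630, 0.860 and 0.291 with lurbinectedin, a change of -4.75 (SE 0.253, edgeR adjusted p = 4.17e-09) where the trend was -0.24. NFAM1, an immune receptor gene of 52 kb, went from 8.71, 8.32 and 8.78 to 0.145, 0.469 and 0.363 CPM. CD248, which encodes the stromal glycoprotein endosialin, spans 2.55 kb and has a single exon, and it went from 20.1, 19.96 and 20.8 CPM to 1.74, 1.41 and 1.56 (-4.30, SE 0.293, edgeR adjusted p = 3.85e-08). Among called genes of the quintile with the shortest spans and with at least 5 CPM in the higher group's mean, it had the largest fall, followed by LINC00379 (5.25 ± 0.476 to 0.868 ± 0.00702 CPM) and C11orf86 (6.12 ± 0.288 to 1.40 ± 0.458 CPM). SLC1A1, a glutamate transporter gene, went from 9.09 ± 0.831 to 0.266 ± 0.0633 CPM.

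A second contrast of lurbinectedin against its absence can be made in the libraries that received teriflunomide, the combination against teriflunomide alone, and it shares no library with the first. There 10393 of 16651 genes (62.4%) were called for their span. Both contrasts called 8919 genes, and 8903 of these went the same way, which is 83.7% of the calls of the first and 85.7% of those of the second. The medians in the second contrast were 1.86 for p53 targets, 2.05 for immediate early genes, 1.30 for NF-kB genes, -0.83 for sterol genes and -0.48 for the respiratory chain. Cytosolic ribosomal proteins had 15 members higher and 26 lower there and a median of -0.12, and HLA class I presentation had 6 and 6. In the edgeR test of the difference between the contrasts, none of the 79 ribosomal protein genes was called, and 67 of all genes (0.402%) were. Of these 67, 56 had a lower change in the presence of teriflunomide, and 8 were p53 targets. Teriflunomide replicate 3 and combination replicate 2 held mitochondrially encoded shares of 22.6% and 24.9%, against 8.42% to 14.6% in the other 4 of these libraries, and the part of this in the second contrast was not tested.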

How the data were processed

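RNA of 12 libraries of SBC3 spheroids was measured by mRNA sequencing, with 6 libraries used for the main comparison. The deposited values are raw counts per gene, one table per library. Per the submitters' processing notes, the authors used fastp 0.23.2, STAR 2.7.9, Subread featureCounts and hg38; how these were set is not given in the sources used here. Genomic span was the largest exon end minus the smallest exon start in the deposited counts' annotation columns, and principal transcripts came from GENCODE 29.

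Counts were tested with edgeR 4.0.16 (R 4.3.3) in a quasi-likelihood fit over all 12 libraries and 4 groups, with TMM scaling and edgeR's filter on low counts, which left 16683 genes, 16651 of them nuclear. For the span-adjusted test, a loess curve (share of genes 0.3) of each library's log2 CPM minus the mean of the control libraries was fitted on log10 span and entered as an offset. Calls used a Benjamini-Hochberg adjusted p under 0.05. The biological coefficient of variation was 14.5% before and 13.4% after adjustment. The code was tested on simulated counts.

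The members and lists were chosen with earlier results of these data known, and no list was given a test of its own. Named genes were the 8 largest span-adjusted rises and 8 largest falls (minimum level 5 CPM in whichever group was higher, libraries not overlapping), the 3 largest falls among the shortest quintile of genes and the 3 largest rises among the longest quintile, up to 4 members of each list (the 2 smallest p and the largest rise and fall), and POLR2A, CDKN1A, MDM2, JUN, FOS and EGR1; not all of these are described, and some results are not reported here. Alternatives were other scalings, filters, tools, thresholds, groups in the fit, trend variables, the replicate block and leaving out each library.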

Additional observations from a re-analysis of the deposited data

Results flagged for a closer look

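Of the genes whose change differed between the 2 contrasts of lurbinectedin by edgeR's test of the difference itself, 5 are given here by name, BTG2 and 4 that the report describes. In each, the span-adjusted log2 change was lower for the combination against teriflunomide than for lurbinectedin against control, and higher than 0 in both. BTG2, an antiproliferative p53 target, differed by -1.39 (edgeR adjusted p = 0.00146), from 3.86 to 2.47. JUN differed by -1.25 (edgeR adjusted p = 0.00972), from 5.03 to 3.78. LIF differed by -1.63 (edgeR adjusted p = 0.0118), from 4.41 to 2.78. FDXR differed by -1.03 (edgeR adjusted p = 0.0135), from 4.07 to 3.04. GADD45A differed by -1.45 (edgeR adjusted p = 0.0446), from 4.45 to 3.0.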

How the results depend on the processing

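The span-adjusted count of 10639 genes ranged from 8547 at a threshold of 0.01 to 12363 with only the 2 groups in the fit, and was 5842 when changes had to exceed 1.5-fold (TREAT). Leaving out 1 library gave 9638 to 9746 calls (11118 to 11285 before adjustment). DESeq2 called 10794, and trends on exonic length and on principal transcript span gave 11644 and 10520 calls; on the latter, 860 calls were lost and 112 turned. The slope difference of -1.17 was -0.44 with no filter and -1.45 with a minimum of 1 CPM in 3 libraries, and ranged from -1.11 to -1.16 when 1 library was left out. The median kept its sign in all 20 settings for 44 of 79 lists. Reversed values were STAG2 at -0.15 with no filter, and ERCC4 at 0.89, STAG2 at -0.94 and PDE4B at -0.093 with a trend on exonic length; the cause was not tested. No link between same-numbered replicates is given in the sources used here, and the main fit had no replicate block. Deviations from the group means correlated at 0.0915, 0.111 and 0.134 for same-numbered libraries. For differently numbered libraries they correlated at -0.0754 to -0.0388. Whether same-numbered libraries share a culture or batch was not tested. With the replicate block 10226 genes were called for their span and 11591 before adjustment. Depth limits how far a gene of low control counts can be seen to fall, which bears on long genes of low level.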

Other observations

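Noncoding genes with a span over 100 kb were mostly above the trend, but noncoding genes of all spans were not. Of all 2407 long noncoding RNA genes tested, 28.7% were higher and 29.5% lower for their span, with a median of 0.02. Of 123 noncoding genes over 100 kb with at least 1 CPM in control, 59.3% were higher and 16.3% lower for their span, with a median of 0.86, against 32.3% and 43.3% of 2239 coding genes, with a median of -0.18. The noncoding group also had a lower level, with a median of 4.22 CPM in control against 30.6 for the coding group. The difference between the groups, and the part of level in it, was not tested. Coding genes of a single exon block, 312 in number, had a median of 0.04.

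Short genes inside a gene over 100 kb had a median span-adjusted change of -0.21 on the same strand (152 genes) and -0.34 on the opposite strand (162 genes), against 0.05 for 4253 short genes outside such genes. By chromosome, the median was highest on 19, at 0.30 over 1252 genes, and lowest on 4 and 13, at -0.21 on each. These are descriptions without a test.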
